A study of Mus musculus with 6 samples.

Results

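The 38 genes described here encode the extracellular matrix and the enzymes that remodel it: 13 collagen chains, 10 matrix glycoproteins, 4 proteoglycans, 3 crosslinking enzymes, 5 matrix metalloproteinases (MMPs) and 3 of their tissue inhibitors (TIMPs). They were chosen by gene symbol, capitals ignored, in the deposited table of 22274 mouse genes. All 38 were found, each in 1 row, and all 38 symbols stood on the gene identifier that carries the same name in GENCODE M21. The tissue was the popliteal lymph node of the mouse, which drains the footpad, and each of 6 nodes gave 1 RNA-seq library. Extracellular vesicles (EVs) from the medium of 1 of 2 human cell lines were injected into the footpad on alternate days over 10 days. The bladder cancer line UM-UC-3 was the EV source for 3 nodes and SV-HUC-1, a line of immortalised urothelium, for the other 3. No node without EVs was analysed here. The labels give no strain, sex or age of the mice, and they name a lipofectamine reagent without stating its role.

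The table names its libraries LN-1 to LN-6, and the labels tie none of these numbers to an EV source. The values are therefore given by library, without EV groups. A difference between libraries can come from the EV source, from the animal or from dissection, which cannot be told apart here. Estimated counts summed to between 13039906 (LN-6) and 18093699 (LN-4) per library. Levels of 1 gene across libraries are in counts per 1000000 (CPM) scaled by the trimmed mean of M-values (TMM), and levels of different genes are in transcripts per 1000000 (TPM), which divide by exon length. In bulk tissue, fewer cells of a type and less RNA per cell cannot be told apart.

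The extracellular matrix of a lymph node is laid down mainly by stromal cells. Fibroblastic reticular cells wrap thin fibres of fibrillar collagen, basement membrane collagen and small proteoglycans into conduits that carry lymph-borne molecules, and the capsule and vessel walls add further fibres. Collagen chains assemble in threes and are crosslinked by lysyl oxidases, while MMPs cut the matrix and TIMPs block the MMPs. Matrix deposition and crosslinking by stromal cells are among the changes studied in pre-metastatic niches.

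Markers of the tissue were present in all 6 libraries. The 12 fibroblast and reticular cell markers summed to between 2765 CPM in LN-2 and 3595 CPM in LN-3. Ccl21a alone had 1398 to 2153 CPM of that sum. The 6 B cell markers summed to between 4045 and 5457 CPM. Of the T cell markers, Cd3e and Cd3d, which encode CD3 chains, were low, from 2.83 to 5.60 CPM and from 1.80 to 4.66 CPM. The sum of all 7, between 209.9 and 310.2 CPM, was led by Cd4, at 85.9 to 165 CPM, a gene that macrophages can also express. Lck was next, at 74.7 to 84.4 CPM. Cd8a had 20.4 to 46.8 CPM, Cd3g 7.54 to 17.2 CPM and Cd8b1 4.62 to 11.6 CPM. Whether these mice lacked T cells was not tested, since the labels name no strain. Tissue from around the node was unequal between libraries. All 11 skeletal muscle markers were highest in LN-2, where they summed to 1092 CPM, followed by 267 CPM in LN-3, 35.7 CPM in LN-6 and between 4.82 and 7.26 CPM in LN-1, LN-4 and LN-5. Acta1 and Myh4, which encode skeletal actin and a fast myosin, had a count of 0 in both LN-4 and LN-5. All 10 adipocyte markers were highest in LN-6, with a sum of 2233 CPM, against 1086 CPM in LN-2 and between 182 and 446 CPM in the other 4 libraries, where Lep, which encodes leptin, was below 1 CPM.

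The matrix genes were well covered in every node. All 38 had a mean of at least 1 CPM, the filter that 13799 genes passed, and 34 had a mean of at least 10 CPM. The single counts ran from 26, for Timp1 in LN-6, to 12935, for Col3a1 in LN-2. Summed over the 38 genes, the level was 2993, 3512, 2676, 2751, 2641 and 3031 TPM in LN-1 to LN-6, so LN-2 was highest and LN-5 lowest. Collagens made up a median of 35.0% of that sum, glycoproteins 25.9%, proteoglycans 23.3%, inhibitors 9.57%, proteases 5.35% and crosslinking enzymes 0.906%. In summed TPM the highest library was 1.61 times the lowest for glycoproteins, 1.52 times for crosslinking enzymes, 1.44 times for proteases, 1.36 times for collagens, 1.28 times for inhibitors and 1.26 times for proteoglycans.

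**Figure D1:**
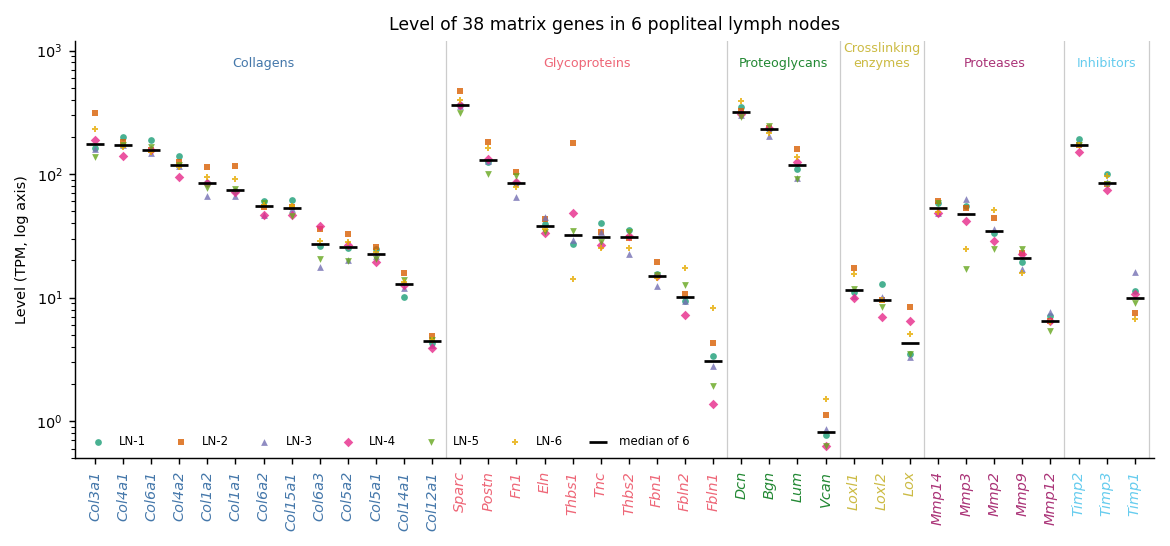
Level of each of the 38 genes in TPM (log axis), by class and in order of the median within a class. Each symbol is 1 of the 6 libraries and the black bar is their median. Medians ran from 0.819 TPM for Vcan to 361 TPM for Sparc, and the wide column among the glycoproteins is Thbs1, with LN-2 far above the others.

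The order of levels given here is with lengths from all exons of a gene. Sparc, a collagen-binding glycoprotein, had the highest median at 361 TPM (lowest 311, highest 471). Dcn and Bgn, the small leucine-rich proteoglycans decorin and biglycan that bind collagen fibrils, followed at medians of 315 and 232 TPM. Which of these 2 was higher depends on the length used, since the median ratio of Dcn to Bgn was 1.41 with all exons and 0.769 with the longest transcript. Next came Col3a1 at 176 TPM, Col4a1 at 173 TPM and Timp2 at 173 TPM, whose ranges over the 6 nodes overlapped with each other and with that of Col6a1 (157 TPM). At the other end stood Fbln1 at 3.07 TPM and Vcan, which encodes the large proteoglycan versican, at 0.819 TPM.

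Most of the 38 genes stayed within a 2-fold range between nodes. In 14 genes the highest library was less than 1.5 times the lowest in CPM, in 15 it was between 1.5 and 2 times, and in 9 it was at least 2 times. These 9 are 23.7% of the matrix genes, against 16.1% of all 13799 genes that passed the filter. The median ratio of highest to lowest library was 1.59 over the matrix genes and 1.37 over all genes. The 9 genes, from the widest ratio down, were Thbs1, Fbln1, Mmp3, Vcan, Fbln2, Lox, Mmp2, Col3a1 and Timp1. The matrix genes were also more abundant than the rest, with a median of the mean level of 93.7 CPM against 29.8 CPM. With LN-2 and LN-6 both left out, a choice made after seeing the data, 2 of the 38 genes (Fbln1 and Mmp3) and 9.24% of all genes had a ratio of at least 2 over the remaining 4 libraries.

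**Figure D2:**
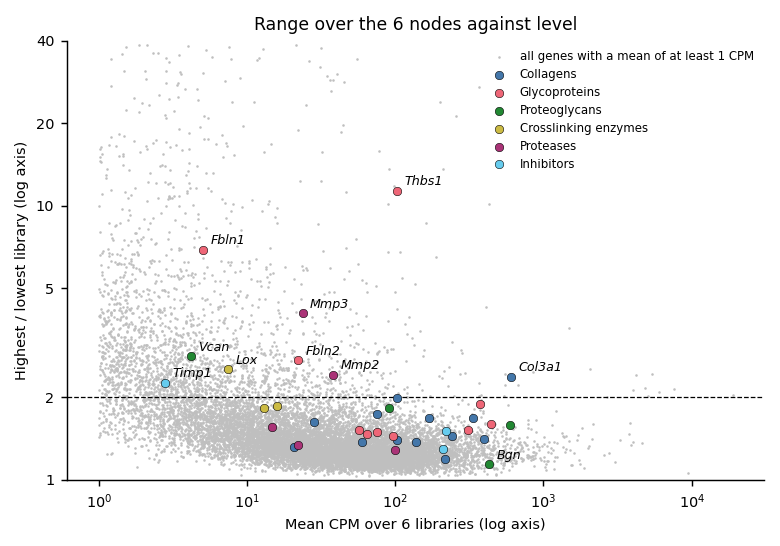
Ratio of the highest to the lowest library (log axis) against mean CPM over the 6 libraries (log axis), for genes with a mean of at least 1 CPM (grey) and for the 38 matrix genes (coloured by class). The dashed line marks a ratio of 2, and 145 genes with a ratio above 40 lie off the plot. The 9 matrix genes above the line and Bgn, the most even one, are named.

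The maxima and minima of the matrix genes were unevenly spread over the libraries. LN-2 held the highest CPM of 15 of the 38 genes, against 11.1% of all genes, and LN-6 that of 11, against 20.6%. The split depends on the scaling, since with library totals in place of TMM LN-2 held 18 and LN-6 held 8. LN-1 was highest for 6 genes (11.8% of all genes), LN-3 for 4 (19.8%), LN-4 for 1 (19.9%) and LN-5 for 1 (16.8%). The lowest CPM lay in LN-4 for 14 genes (20.2% of all genes) and in LN-5 for 13 (17.3%). It lay in LN-3 for 7 (16.6%), in LN-6 for 3 (21.4%), in LN-1 for 1 (11.0%) and in LN-2 for 0 (13.4%). LN-2 and LN-6, which together held 26 of the 38 maxima, are the libraries with the highest adipocyte marker sums, and LN-2 also had the highest muscle sum. The fibroblast and reticular cell sum was lowest in LN-2, at 2765 CPM, and was 3315 CPM in LN-6. Of those 12 markers, 3 were highest in LN-2 and 0 in LN-6. The part of fat, muscle or fibroblasts in the matrix levels was not tested.

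**Figure D3:**
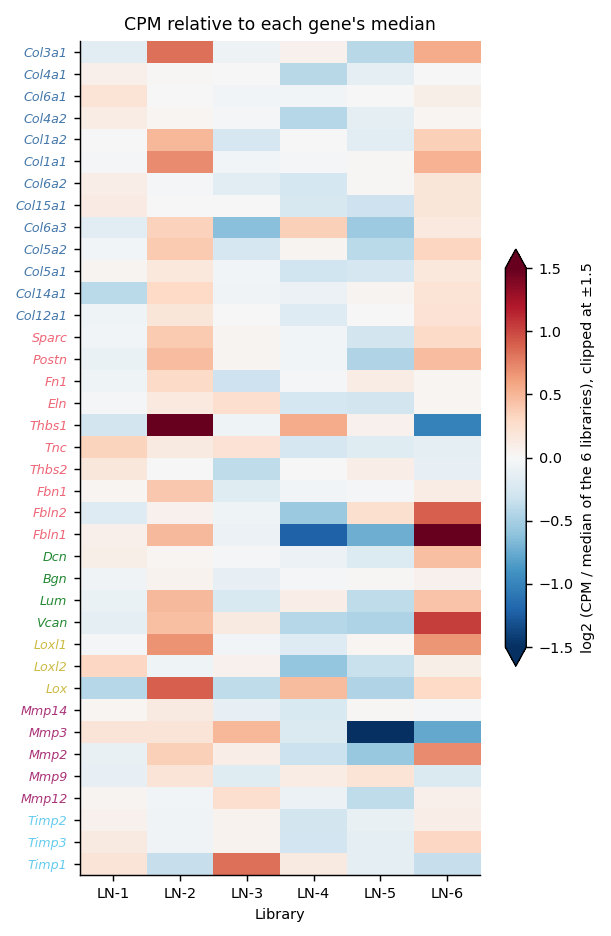
CPM of each matrix gene in each library as log2 of its ratio to the gene's median over the 6 libraries (red above, blue below, clipped at 1.5 either way), with genes ordered by class and level. The LN-2 and LN-6 columns are mostly red for Col3a1, Col1a1, Col1a2, Sparc, Postn and Lum, whereas Col4a1, Col4a2 and the TIMPs do not show that pattern. Thbs1 in LN-2 and Fbln1 in LN-6 are the reddest cells.

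Among the collagens, the chains of interstitial fibrils were highest in LN-2. Col3a1 (chr1:45311538-45349706, plus strand), the chain of type III collagen of reticular fibres, had 473, 942, 503, 555, 396 and 775 CPM in LN-1 to LN-6. LN-2 and LN-6 were the 2 highest, and LN-5 was lowest, with a ratio of 2.37 between LN-2 and LN-5 (95% exact interval 2.30 to 2.45, counting error only, for libraries picked as the extremes). Without LN-2 the ratio was 1.96, and with LN-2 and LN-6 left out it was 1.40. The 2 chains of type I collagen, the main fibre of capsule and tendon, had the same 2 libraries at the top. Col1a1 (chr11:94936224-94953042) had 142, 234, 139, 141, 144 and 205 CPM and Col1a2 had 311, 440.3, 263, 314, 279 and 400.3 CPM, each with a ratio of 1.68. In both, LN-2 was highest and LN-6 second, and the other 4 libraries lay close together. With LN-2 and LN-6 left out, the ratio was 1.04 for Col1a1 and 1.20 for Col1a2.

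The type V chains, which are incorporated into type I fibrils, were lower. Col5a1 had 62.3, 67.5, 58.5, 49.1, 50.8 and 67.4 CPM and Col5a2 71.3, 96.7, 61.7, 75.6, 55.5 and 92.2 CPM. Col5a2 showed the LN-2 and LN-6 maxima of the type I chains with a ratio of 1.74, and Col5a1 showed them more weakly with 1.37.

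The basement membrane collagens had another profile. Col4a1 (chr8:11198423-11312826, minus strand) had 439, 421, 414, 313, 378 and 420.5 CPM and Col4a2 (chr8:11312805-11449287, plus strand) had 273, 257, 248, 188, 229 and 259 CPM. These chains form the network under endothelium and around reticular conduits. LN-1 was highest and LN-4 lowest for both, and LN-2 and LN-6 lay close to each other below LN-1. The 7 smooth muscle and pericyte markers also summed highest in LN-1, to 946 CPM, and lowest in LN-4, to 525 CPM. Of these 7 markers, 1 was highest in LN-1, while Acta2 and Tagln were highest in LN-2 and Myh11 and Cnn1 in LN-6. The pericyte marker Rgs5 was highest in LN-3, at 454 CPM, with 448 CPM in LN-1 and 276 CPM in LN-5. It had between 153 and 167 CPM in LN-2, LN-4 and LN-6. The 6 endothelial markers summed highest in LN-3, to 1503 CPM, and lowest in LN-4, to 1095 CPM. The part of these cells in the type IV collagen values was not tested. Col15a1, a collagen at the border of basement membranes, ran from 85.3 CPM in LN-5 to 119 CPM in LN-6.

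Col4a1 and Col4a2 are transcribed away from each other from neighbouring starts. Their RefSeq start sites (GRCm38.p6) lie 21 bases apart, and their first exons overlap by 22 bases on opposite strands in GENCODE M21. The promoter windows of the 2 genes, each from 250 bases before to 50 bases after the start site, share 78 bases, chr8:11312777-11312854. They are shown because this pair kept the most constant ratio of all pairs compared. Capitals mark the shared bases, which read as reverse complements of each other.
Col4a1 (chr8:11312777-11313076, minus strand): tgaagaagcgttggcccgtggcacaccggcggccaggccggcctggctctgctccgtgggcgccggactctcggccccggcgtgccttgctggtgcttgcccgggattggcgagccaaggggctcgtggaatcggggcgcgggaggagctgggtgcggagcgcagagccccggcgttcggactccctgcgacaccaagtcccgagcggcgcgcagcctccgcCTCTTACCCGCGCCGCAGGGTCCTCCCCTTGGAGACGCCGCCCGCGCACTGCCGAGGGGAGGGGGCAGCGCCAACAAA
Col4a2 (chr8:11312555-11312854, plus strand): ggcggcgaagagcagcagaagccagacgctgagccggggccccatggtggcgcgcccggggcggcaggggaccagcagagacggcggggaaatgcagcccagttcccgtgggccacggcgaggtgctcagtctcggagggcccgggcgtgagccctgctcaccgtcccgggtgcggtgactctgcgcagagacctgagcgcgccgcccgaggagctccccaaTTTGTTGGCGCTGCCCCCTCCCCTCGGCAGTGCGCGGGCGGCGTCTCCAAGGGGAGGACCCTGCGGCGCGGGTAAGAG

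The ratio of Col4a1 to Col4a2 in TPM was 1.43, 1.46, 1.48, 1.47, 1.46 and 1.44 in LN-1 to LN-6. Its highest value was 1.03 times its lowest, although each gene alone varied by 1.40 and 1.45 times in CPM. The ratio of Col1a1 to Col1a2 ran from 0.851 to 1.01 and the ratio of Col6a1 to Col6a2 from 2.68 to 3.34, so both pairs also stayed within 1.25 times between nodes. The ratio of Col5a1 to Col5a2 ran from 0.734 to 1.07 and was above 1 in 2 of the 6 libraries. How far a pair's ratio lies from 1 depends on the exon length assigned to each gene, and its spread between libraries does not.

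The type VI chains form beaded microfilaments around cells. Col6a1 was among the most even genes of the 38, with 244, 213, 207, 205, 211 and 225 CPM and a ratio of 1.19. Col6a2 had 151, 139, 125, 117, 142 and 159.9 CPM. Col6a3 differed from them, with 93.2, 133, 67.7, 134, 72.1 and 117 CPM, where LN-2 and LN-4 were about equal and highest and LN-3 and LN-5 were lowest. Its ratio was 1.99, just under 2, and 2.00 with DESeq2 size factors. The fibril-associated collagens were low, with Col12a1 from 17.9 to 23.6 CPM and Col14a1 from 21.1 CPM in LN-1 to 34.3 CPM in LN-2.

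Thbs1 (chr2:118111876-118127133), which encodes thrombospondin 1, an adhesive glycoprotein of platelets and stroma that can activate latent TGF-beta, varied most of the 38 genes. Its values in LN-1 to LN-6 were 48.8, 332, 56.7, 87.4, 61.7 and 29.3 CPM. LN-2 stood alone, at 3.80 times the next library, LN-4, and LN-6 was lowest. The ratio of LN-2 to LN-6 was 11.3 (95% exact interval 10.2 to 12.6, counting error only). Without LN-2 it fell to 2.97, without LN-6 to 6.81 and without both to 1.79. LN-2 was the highest library of the muscle markers too, while the erythroid markers were highest in LN-4 (1063 CPM) and LN-2 (773 CPM), with 84.1 to 205 CPM in the other libraries. The neutrophil markers had their 2 highest sums in the same libraries, with 427 CPM in LN-4 and 387 CPM in LN-2, and 151 to 256 CPM in the rest. Their part in the Thbs1 value was not tested. Thbs2, the paralog thrombospondin 2, had 73.8, 65.3, 50.4, 65.8, 70.0 and 60.2 CPM and was not raised in LN-2. The ratio of Thbs1 to Thbs2 in TPM was therefore 5.87 in LN-2 and between 0.562 and 1.53 in the other 5 libraries.

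Fbln1 (chr15:85205949-85286535), which encodes fibulin 1 of elastic fibres and basement membranes, was a low gene with the second widest ratio. It had 4.35, 5.75, 3.89, 1.78, 2.47 and 12.3 CPM, on counts from 32 in LN-4 to 157 in LN-6. LN-6 was more than 2 times any other library, and the ratio of 6.90 (95% exact interval 4.69 to 10.4) fell to 3.23 without LN-6. Fbln2 had 17.6, 21.0, 19.2, 13.7, 23.8 and 37.4 CPM, again with LN-6 highest and LN-4 lowest and a ratio of 2.73, or 1.74 without LN-6. Both fibulins were highest in the library with the highest adipocyte sum and lowest in the one with the lowest. The 6 keratinocyte markers had the same extremes, with sums of 30.6 CPM in LN-6 and 3.67 CPM in LN-4, and so did Sox10, a Schwann cell factor, with 4.85 CPM in LN-6 and 0.167 CPM in LN-4. The 6 Schwann cell and nerve markers together summed highest in LN-6, to 143 CPM, and lowest in LN-3, to 107 CPM. The part of these tissues was not tested.

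The other glycoproteins varied less. Sparc (chr11:55394500-55423183, minus strand) had 408, 550.3, 428, 407, 346 and 511 CPM and Postn, periostin, a stromal protein that binds collagen and integrins, had 326, 484, 359, 341, 256 and 481 CPM. Both were highest in LN-2 and LN-6 and lowest in LN-5. Fn1, fibronectin, had 293, 373, 245, 298, 329 and 312 CPM, with LN-2 highest and LN-3 lowest. Tnc, tenascin C, a glycoprotein of remodelling tissue, ran from 61.8 CPM in LN-4 to 92.5 CPM in LN-1. Fbn1, the microfibril protein fibrillin 1, ran from 48.4 CPM in LN-3 to 73.2 CPM in LN-2, and Eln, elastin, from 80.4 CPM in LN-5 to 116 CPM in LN-3.

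**Figure D4:**
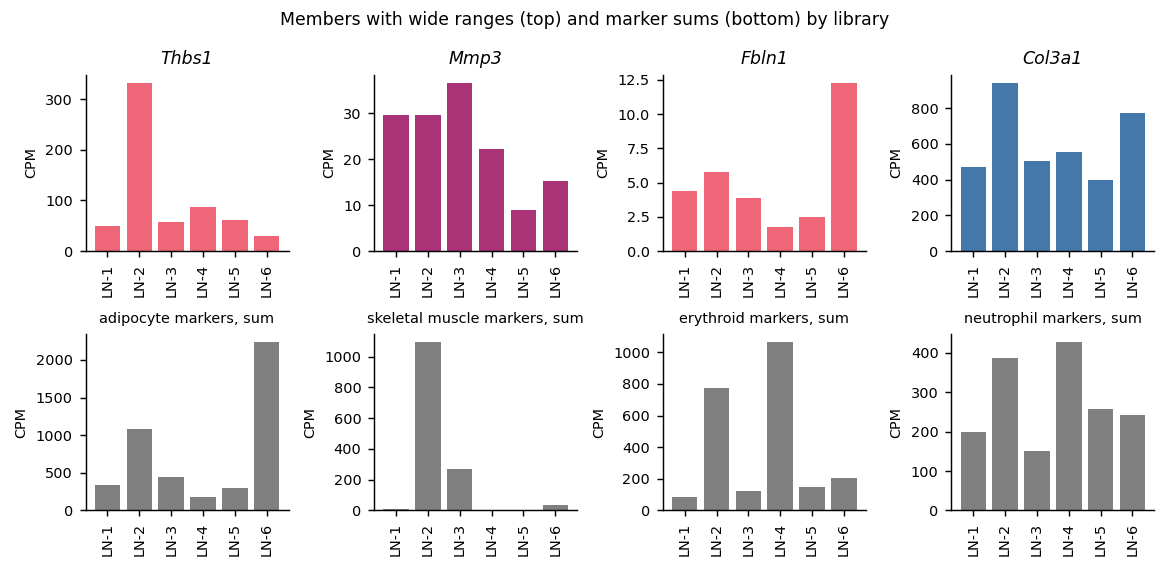
CPM by library of 4 members with wide ranges (top row) and summed CPM of the adipocyte, skeletal muscle, erythroid and neutrophil markers (bottom row). Every axis starts at 0. Thbs1 is highest in LN-2 (332 CPM), Mmp3 in LN-3 (36.6 CPM), Fbln1 in LN-6 (12.3 CPM) and Col3a1 in LN-2 (942 CPM).

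The proteoglycans ranged from the most even gene of the 38 to one of the less even. Bgn (chrX:73483602-73495933, plus strand) had 417, 447, 396, 426, 437 and 450.2 CPM, and its highest library was only 1.14 times its lowest (95% exact interval 1.10 to 1.18). Dcn (chr10:97479609-97518143, plus strand) had 603, 581, 558, 536, 493 and 781 CPM, with LN-6 above the rest. Lum, lumican, a proteoglycan that regulates fibril thickness, had 79.9, 120.0, 73.2, 91.7, 65.7 and 115 CPM and shared its 2 highest libraries, LN-2 and LN-6, with the type I and III collagens. Vcan had 3.30, 5.02, 4.03, 2.73, 2.66 and 7.51 CPM on counts of 43 to 96, and its ratio of 2.83 had an interval of 1.95 to 4.15 and was 1.89 without LN-6, its highest library. The ratio of Dcn to Lum in TPM was 3.16, 2.03, 3.20, 2.45, 3.15 and 2.85, so it was lowest in LN-2 and above 1 in every library. The ratio of Dcn to Bgn with lengths from all exons ran from 1.18 in LN-5 to 1.81 in LN-6.

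The lysyl oxidases, which crosslink collagen and elastin, were among the lower genes. Lox had 4.95, 12.4, 5.09, 9.24, 4.88 and 8.22 CPM, with LN-2, LN-4 and LN-6 above the other 3, and a ratio of 2.53 (95% exact interval 1.93 to 3.35) that was 1.89 without LN-2. Loxl1 had 10.9, 17.8, 10.8, 9.74, 11.3 and 17.6 CPM, with LN-2 and LN-6 about equal at the top. Loxl2 had 20.7, 15.9, 17.4, 11.2, 13.2 and 17.8 CPM, with LN-1 highest and LN-4 lowest. The 3 enzymes thus had different library orders, and the ratio of Loxl1 to Loxl2 in TPM ran from 0.861 in LN-1 to 1.83 in LN-2.

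The proteases differed in profile. Mmp3 (chr9:7445822-7455975), stromelysin 1, which cuts proteoglycans and activates other MMPs, had 29.7, 29.6, 36.6, 22.2, 9.03 and 15.3 CPM. LN-5 and LN-6 were lowest and LN-3 highest, so its order did not follow that of the fibrillar collagens. The ratio of LN-3 to LN-5 was 4.05 (95% exact interval 3.36 to 4.90), 2.36 without LN-5, and 4.05 with LN-2 and LN-6 left out. Mmp2, a gelatinase of fibroblasts, had 33.3, 46.0, 38.6, 28.7, 24.2 and 58.6 CPM, with LN-6 and LN-2 highest and LN-5 lowest. Its ratio was 2.42, and 1.90 without LN-6. Mmp14, the membrane-bound MMP that activates the Mmp2 product, was even at 103, 111, 92.6, 86.5, 102 and 99.9 CPM. Mmp9, a gelatinase of myeloid cells, had 20.3, 25.2, 19.4, 23.8, 25.4 and 19.0 CPM, and Mmp12, the macrophage elastase, had 15.2, 14.3, 17.6, 13.9, 11.3 and 15.6 CPM. Of the exons of Mmp12, 157 bases of 7237 overlap Mmp1b on the opposite strand, and whether counting used strand is not stated. Mmp9 was nearly level between nodes with a ratio of 1.34, and Mmp12 was highest in LN-3 and lowest in LN-5, as Mmp3 was. The summed macrophage markers had the same 2 extremes, with 1618 CPM in LN-3 and 1059.8 CPM in LN-5, although 3 of the 8 were highest in LN-3, and their part in the Mmp3 and Mmp12 values was not tested.

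Mmp3 and Mmp12 lie in the MMP cluster of chromosome 9, and their promoter windows are shown because these neighbours had ratios of 4.05 and 1.56. Both held TGAGTCA, a match to TGANTCA, the core of sites bound by AP-1 factors (searched on both strands, where the motif reads the same). It began 46 bases before the start site of Mmp3 and 44 before the downstream start of Mmp12. The motif occurred in 7.81% of all 32851 windows in the RefSeq table and in 3 of the 29 windows of the 24 matrix genes listed there, the third being Col6a1. The other Mmp12 window held no match. A match is a description of the sequence and not a bound site. Capitals mark the motif.
Mmp3 (chr9:7445572-7445871, plus strand): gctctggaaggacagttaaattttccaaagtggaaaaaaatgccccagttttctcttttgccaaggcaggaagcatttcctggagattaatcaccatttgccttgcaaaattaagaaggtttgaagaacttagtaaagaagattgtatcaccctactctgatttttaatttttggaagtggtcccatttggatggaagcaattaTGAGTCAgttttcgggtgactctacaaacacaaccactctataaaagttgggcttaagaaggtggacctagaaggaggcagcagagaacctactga
Mmp12 (chr9:7347124-7347423, plus strand): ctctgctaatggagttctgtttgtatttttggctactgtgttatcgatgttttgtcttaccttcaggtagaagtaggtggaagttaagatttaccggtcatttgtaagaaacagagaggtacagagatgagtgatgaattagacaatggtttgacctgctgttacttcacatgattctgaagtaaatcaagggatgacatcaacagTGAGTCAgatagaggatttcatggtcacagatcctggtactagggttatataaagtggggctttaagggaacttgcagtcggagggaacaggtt

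The inhibitors were mostly high and even. Timp2 had 223, 206, 221, 177, 198 and 229 CPM and Timp3, a matrix-bound inhibitor, had 239.9, 209, 226, 179, 199 and 269 CPM, each lowest in LN-4. Of the exons of Timp3, 1733 bases of 8144 overlap Syn3, a gene on the opposite strand, and whether counting used strand is not stated in the labels. Timp1, which is induced in inflammation, was low at 2.97, 2.04, 4.60, 2.84, 2.35 and 2.03 CPM on counts of 26 to 65. Its ratio of 2.26 had an interval of 1.41 to 3.71 and was 1.46 without LN-3. In TPM, Timp2 exceeded Mmp2 in 6 of 6 libraries, by 3.38 to 7.05 times, and Mmp14 in 6 of 6, by 2.84 to 3.65 times. The ratio of Timp2 to Mmp14 was steadier between nodes (1.28 times from lowest to highest) than that of Timp2 to Mmp2 (2.09 times). Timp3 exceeded Timp1 in TPM by 5.37 to 14.4 times, and Mmp9 exceeded Mmp12 by 2.26 to 4.59 times.

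**Figure D5:**
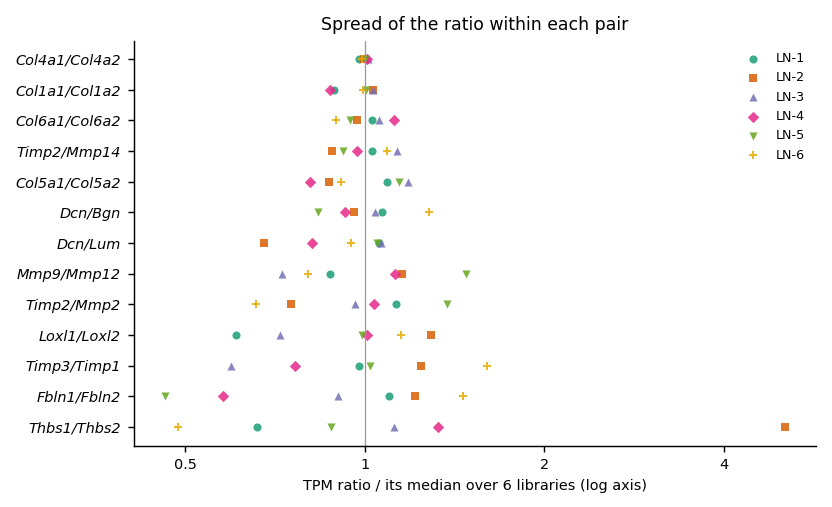
Ratio in TPM within each of 13 pairs of matrix genes, divided by its median over the 6 libraries (log axis). Each symbol is 1 library, and pairs run from the steadiest at the top to the least steady at the bottom. Col4a1/Col4a2 spans 1.03 times from lowest to highest and Thbs1/Thbs2 spans 10.4 times, with LN-2 apart.

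Other genes of the matrix pathway gave the following counts, to be read against the 16.1% of all genes with a ratio of at least 2 and the 20.6% highest in LN-6, the library with the highest adipocyte sum. Of 20 further collagen genes, 15 passed the filter and 10 of those had a ratio of at least 2, with 10 of the 15 highest in LN-6. Some of these ratios rest on values near 0. In LN-4, Col4a6 and Col9a1 had 0 CPM, which gives no finite ratio but was counted as at least 2. Col11a1 had 0.167 CPM and Col8a1 0.891 CPM in LN-4. Col5a3, Col6a5 and Col7a1 were higher, with lowest values of 7.73, 12.6 and 10.9 CPM. The filter takes the mean over all 6 libraries, so a low gene can pass through the library where it is highest. Col4a6 had 5.95 CPM in LN-6 and at most 2.38 CPM elsewhere, and Col11a1 had 2.97 CPM and at most 1.19 CPM. The numbers highest in LN-6 are therefore not independent of the filter. The most abundant of the 20 were Col16a1, a fibril-associated collagen, and Col18a1, the source of endostatin, at medians of 17.9 and 13.2 TPM, and Col6a5, a further type VI chain, at 12.3 TPM. Of 15 laminins and other basement membrane genes, 14 passed, 3 had a ratio of at least 2 and 6 were highest in LN-6. Of the 3, Lama1 had only 0.612 CPM in LN-4. Lamc1, Nid1 and Lamb2, encoding a laminin chain, nidogen 1 and a further laminin chain, had medians of 78.3, 68.0 and 43.8 TPM and ratios of 1.31, 1.47 and 1.36. Of 30 other glycoproteins and proteoglycans, 27 passed, 11 had a ratio of at least 2 and 15 were highest in LN-6. Some of the 11 also rest on low values, with lowest CPM of 0.330 for Mfap4, 0.668 for Smoc2, 0.804 for Mfap5 and 0.946 for Efemp1. Srgn, the proteoglycan serglycin of blood cell granules, led the 30 at a median of 542 TPM, followed by Tgfbi at 290.0 TPM and Fmod, fibromodulin, at 79.5 TPM. Of 29 other proteases and inhibitors, 25 passed, 5 had a ratio of at least 2 and 9 were highest in LN-6. The lysosomal cathepsins Ctss, Ctsb and Ctsl were most abundant at medians of 1252, 470.2 and 188 TPM.

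Of 15 collagen biosynthesis genes, all 15 passed, 2 had a ratio of at least 2 and 9 were highest in LN-6 (20.6% of all genes). Adamts2, highest in LN-6, is counted both here and among the other proteases and inhibitors. P4hb and Serpinh1, a subunit of collagen prolyl hydroxylase and a collagen chaperone, had medians of 426 and 117 TPM and ratios of 1.10 and 1.54, and Crtap, a cofactor of prolyl 3-hydroxylation, had 86.5 TPM. Of 17 matrix receptors, 16 passed, 3 had a ratio of at least 2 and 5 were highest in LN-6. Itgb1, the shared integrin beta 1 chain, had a median of 318 TPM, ahead of the syndecan Sdc4 at 98.4 TPM and the hyaluronan receptor Cd44 at 94.3 TPM. Of 11 TGF-beta signalling genes, which include Bgn, 11 passed, 0 had a ratio of at least 2 and 3 were highest in LN-6. Next to Bgn, the most abundant were the receptor gene Tgfbr2 at a median of 151 TPM and Eng, the coreceptor endoglin of endothelium, at 149 TPM.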

How the data were processed

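RNA was sequenced from 6 popliteal lymph nodes. Estimated counts per gene for libraries LN-1 to LN-6 came from a single deposited table, per the file headers. Of these values 9.09% were not whole, and they were rounded. HISAT2 (version 2.4) and the mm10 build were used, per the submitters' processing notes. Neither the counting tool nor its annotation or use of strand is given in the sources used here. Another 6 columns of per-library values were not used, so that each node entered with 1 measure. The library names fit no single sample title, so no EV groups were compared and no p-value is given.

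Counts were scaled by TMM (edgeR 4.0.16, R 4.3.3) to CPM. TPM used the union of exons in GENCODE M21 (GRCm38), which gave a length for 22219 genes. Genes with a mean of at least 1 CPM were kept, and the range rule was a highest library at least 2 times the lowest. Intervals of 95% are exact (Clopper-Pearson, SciPy 1.17.1) and cover counting error only; estimated counts are not all independent molecules. The steps were run on simulated counts with counting error only, as a check of the code. Variation between animals or in dissection was not simulated, so the range rule itself was not tested. Alternatives were library totals, DESeq2 1.42.0 size factors, other filters, a threshold of 1.5, the longest transcript as length and libraries left out. Named genes were every member, with values in each library for the 3 most abundant of each class, the 8 most and 4 least variable and the paired ones, and the 3 most abundant genes of each other list. The members, lists and rules were chosen with earlier results of these data known. The labels do not say that the nodes came from separate animals.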

Additional observations from a re-analysis of the deposited data

Results flagged for a closer look

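In 4 of the 57 values examined by library (38 genes, 6 class sums and 13 pair ratios), 1 library lay apart from the other 5, with a gap to its neighbour that passed Dixon's critical value for 6 samples; chance alone flags about 1 group in 20. Thbs1 was apart in LN-2, at 332 CPM, with a gap of 0.808 of the range. The same library set the ratio of Thbs1 to Thbs2, at 5.87, and the summed level of the 10 glycoproteins, at 1074 TPM, which includes Thbs1. Timp1 was apart in LN-3, at 4.596 CPM on a count of 65, with a gap of 0.635 of the range.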

How the results depend on the processing

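No paired analysis was run, since the labels name no pairing of nodes and match no library number to 1 sample. Of 66 values followed through the alternatives, 43 kept their size or their side of the threshold in every alternative applied to them. Not every value was followed through every alternative. Numbers and shares of genes were taken as kept within 1.5 times. The median ratio was taken as kept within the standard deviation of the members' ratios, a wide margin that the most variable members enlarge. A threshold of 1.5 raised the number of matrix genes past it to 24 and the share of all genes to 35.5%. With LN-2 and LN-6 both left out, which also removes libraries from the range, the counts were 2 genes and 9.24%. Leaving out single libraries gave 6 to 10 matrix genes and 12.2% to 15.1% of all genes with a 2-fold range. With library totals 0 genes were highest in LN-4, 18 in LN-2 and 8 in LN-6. With DESeq2 size factors 14 were highest in LN-2 and 12 in LN-6.

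Lengths from the longest transcript moved the median sums to 899.6 TPM for glycoproteins, 828 TPM for proteoglycans and 20.2 TPM for crosslinking enzymes. They moved the median ratios to 0.465 (Col1a1/Col1a2), 1.60 (Col4a1/Col4a2), 0.633 (Col5a1/Col5a2), 1.88 (Col6a1/Col6a2), 3.73 (Dcn/Lum), 1.84 (Timp2/Mmp14), 15.5 (Timp3/Timp1) and 2.14 (Mmp9/Mmp12), and turned Dcn/Bgn to 0.769. The length alone differs between these values. Counts under 100, as for Timp1, Vcan and some Fbln1 and Lox values, limit how finely those genes can be compared.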

Other observations

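Thbs1 was not alone among matrix genes in standing apart in LN-2. Ccn1 and Ccn2, which encode secreted matricellular proteins known as early targets of the YAP and serum response pathways, were also highest in LN-2, and both were singled out after their values were seen. Ccn1 had 31.5, 269.8, 53.3, 71.8, 26.0 and 17.0 CPM in LN-1 to LN-6, so LN-2 was highest, LN-4 second and LN-6 lowest, the order also seen at both ends for Thbs1. Ccn2 had 4.22, 27.0, 5.80, 10.4, 8.84 and 12.4 CPM, so LN-6 was second and LN-1 lowest, unlike Thbs1. Among the further collagens, Col6a5 was singled out in the same way, with 21.5, 49.1, 13.6, 55.3, 61.1 and 12.6 CPM, so LN-2, LN-4 and LN-5 stood above the other 3.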
